A study of Homo sapiens with 4 samples.

Results

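Single cells that had copied between 50 and 60% of their genome were compared between the human colorectal cancer line HCT116 and its derivative DKO1, which carries knockouts of 2 DNA methyltransferases, DNMT1 and DNMT3B. Progress was counted as the replicated percent of the 80 kb bins with a call, and cells with a value of at least 50 and under 60 were kept. This rule kept 129 of 529 S-phase cells, 80 of 322 from HCT116 and 49 of 207 from DKO1. Neither line was treated, and both were grown in the same medium. Living cells were stained for DNA content and sorted, the early, mid and late fractions of S phase were mixed equally, and each mix went into a droplet copy-number assay as 1 library per line. DKO1 is a single derived line, known to have lost most of its DNA methylation and to keep a small amount of a shortened DNMT1 protein, neither of which was measured here. With 1 S-phase library per line and cells that are not replicates, no test between the lines was possible and no p-value is given. Values stand side by side, and exact binomial (Clopper-Pearson) 95% intervals of shares of cells cover counting error only.

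DNA replication starts at many origins, and neighbouring origins tend to fire together, so that stretches on the scale of a megabase, called replication domains, are copied at a similar time. Gene-rich, open domains are copied early in S phase and gene-poor domains, many of them held at the nuclear lamina, late. In many cancer cells the late domains are also those that have lost part of their DNA methylation. DNMT1 copies methylation marks to the new strand behind the fork, and DNMT3B can place marks on unmethylated sites. In the middle of S phase most early domains are done, and the cell passes from the early to the late part of the programme.

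Within the window the lines did not have quite the same progress. HCT116 cells had a median of 55.05% with quartiles of 52.3 and 58.3%, and DKO1 cells one of 53.8% with quartiles of 52.0 and 56.7%. The cells nearest the limits lay at 49.99 and 50.1% and at 59.9 and 60.1% in HCT116, and at 49.8 and 50.2% and at 59.9 and 60.4% in DKO1. The cells also differed in bins without a call (code 0), 2.89% of all calls in DKO1 against 0.992% in HCT116. At most 1% of bins were uncalled in 61 of 80 HCT116 cells but in only 14 of 49 DKO1 cells. Some comparisons below are therefore also given for these well-called cells, or for 49 HCT116 cells matched one by one to the DKO1 cells in progress. The overlaps of newly replicated bins, the flanks of new domains, the partly copied domains and the stretches within late domains are given for all cells only. No cell barcode was shared by the libraries.

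DKO1 cells were less alike than HCT116 cells, in this window and in the neighbouring windows of progress. The share of a bin is the percent of the cells of a line in which it was replicated, taken over the 27142 bins (2171 Mb) with a call in 90% or more of each line's cells. In HCT116, 37.4% of bins were replicated in at least 90% of cells, 25.7% were replicated in at most 10% of cells, and 23.99% had an intermediate share of 20 to 80%. In DKO1 the same classes held 28.0, 17.9 and 33.5% of bins. Over all cells fewer bins were thus settled at either end in DKO1, and 727 Mb against 521 Mb were in the intermediate class. This gap was not particular to the window. At 40 to 50% progress the intermediate class held 24.55% of bins in HCT116 and 35.2% in DKO1, and at 60 to 70% it held 22.4 and 34.6%. The mean share itself was close, at 55.8 and 54.9%, because the choice of cells fixed it. With HCT116 cells matched in progress and number, the intermediate class held 23.8% of bins in HCT116. Among well-called cells it held 21.7% in HCT116 and 28.7% in DKO1, and with 14 such cells in each line 23.9 and 28.7%. The end classes came closer together with these 14 cells per line. A share of at least 90% was then found for 38.7% (HCT116) against 35.2% (DKO1), and one of at most 10% for 29.7 against 26.3%. DKO1 thus stayed lower at both ends, by narrower gaps than over all cells.

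**Figure D1:**
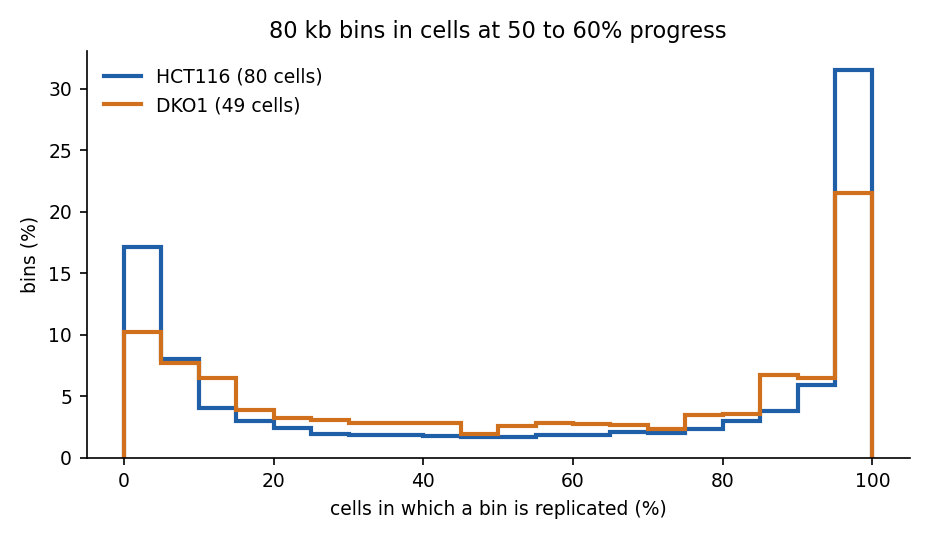
Percent of 80 kb bins (y axis) by the percent of cells at 50 to 60% progress in which the bin was replicated (x axis, steps of 5 points), for 80 HCT116 and 49 DKO1 cells. HCT116 has more bins at both ends of the axis, and DKO1 has more between 20 and 80% (33.5 against 23.99% of bins).

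The first question was which domains a cell copies as it passes the middle of S phase. A bin was called newly replicated in a line if under 50% of its cells at 40 to 50% progress (61 HCT116 and 56 DKO1 cells) and at least 50% of its cells at 50 to 60% had copied it. These bins were chosen by this contrast, so the rise itself is no finding. There were 2794 such bins in HCT116 (10.3% of bins) and 3140 in DKO1 (11.6%). In the other direction, 1 bin in HCT116 (0.00368%) and 15 bins in DKO1 (0.0553%) crossed 50% downwards. Since progress chose both groups of cells, so low a number is largely fixed by the rule too.

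In each line under 50% of these bins crossed in the other line as well, though a larger part than over all bins. Of the HCT116 bins, 44.8% crossed in DKO1 too, 20.7% had already been copied in most DKO1 cells at 40 to 50%, and 34.5% were still copied in under 50% of DKO1 cells at 50 to 60%. Of the DKO1 bins, 39.9% crossed in HCT116 too, 35.6% were already past 50% in the earlier HCT116 cells, and 24.5% were still under 50%. Over all bins, 11.6% crossed in DKO1 and 10.3% in HCT116. A share of at least 50% was found in 43.4% of all bins in DKO1 and 45.8% in HCT116 at 40 to 50% progress. At 50 to 60% it was found in 54.96 and 56.1%. Bins near the 50% line can fall on either side through counting error alone. At the low end, only 8 of all the HCT116 bins (0.286%) and 24 of the DKO1 bins (0.764%) had a share of at most 10% in the other line. Bins near the high end in the other line were not counted.

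Runs of at least 5 newly replicated bins, bridging at most 1 other bin, formed 174 domains in HCT116 and 211 in DKO1, with a median length of 0.56 Mb in both. The longest measured 1.6 Mb in HCT116 and 2.4 Mb in DKO1. Which line had more of them depended on the definition: with a rise of at least 20 points in place of the crossing there were 451 and 408, and against all cells under 50% progress 383 and 374. With well-called cells there were 152 and 215, and with HCT116 cells matched in progress 149 and 211. A domain of the other line shared at least 1 bin with 79 of the 174 HCT116 domains (45.4%) and with 82 of the 211 DKO1 domains (38.9%). The flanks of the new domains were mixed. Among those with a readable bin on both sides, 34.4% in HCT116 and 24.1% in DKO1 lay between flanks that most earlier cells had replicated, and 42.9 and 45.7% had such a flank on 1 side. In 22.7% of HCT116 and 30.2% of DKO1 domains neither flank had been replicated in most earlier cells. A flank is by its definition either already replicated or not yet, so these percents alone show no preference.

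In a single cell such a domain was often caught partly copied. For the 57 stretches that were new in both lines, an average of 46.4% of HCT116 cells had copied the whole stretch, 15.5% had copied none of it and 38.1% were mixed. In DKO1 43.3% had copied all, 21.9% none and 34.8% a part. In the earlier cells 40.5% of HCT116 and 45.3% of DKO1 cells had copied none. In the cells at 60 to 70% progress, which did not choose these stretches, 4.62% of HCT116 cells and 10.95% of DKO1 cells still had none of them.

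Among the 8 HCT116 domains with the largest summed rise, the highest-ranked lay at chr5:52560001-54160000 (coordinates of the deposited table, hg19). Most of it was replicated in 15 of 60 HCT116 cells (25%) at 40 to 50% progress and in 53 of 79 (67.1%, interval 55.6 to 77.3%) at 50 to 60%. In DKO1 the counts were 9 of 55 (16.4%) and 22 of 48 (45.8%, 31.4 to 60.8%), so both lines rose and DKO1 lay lower. At chr10:30720001-31840000 most of the domain was replicated in 57 of 80 cells of HCT116 (71.3%, 60.0 to 80.8%), against 18 of 49 of DKO1 (36.7%, 23.4 to 51.7%). At chr3:192320001-193280000 these counts were 53 of 80 (66.3%, 54.8 to 76.5%) and 14 of 45 (31.1%, 18.2 to 46.7%). These last 2 held no bin of a DKO1 domain. The domain at chr14:94800001-95600000 went the same way in both lines, with shares of 24.9 and 76.6% at 40 to 50 and 50 to 60% progress in HCT116 and of 37.3 and 66.0% in DKO1. The other 4 lay at chr5:126240001-127440000, at chr4:114240001-115520000, at chr11:31600001-32560000 and at chr7:33520001-34800000. Over all 8 the shares at 50 to 60% progress were 64.1 to 78.9% for HCT116, against 41.2 to 66.0% for DKO1. The HCT116 shares in these cells chose the domains and the DKO1 shares did not, so a higher HCT116 value is in part fixed by the rule.

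The DKO1 domain with the largest summed rise lay at chr4:22480001-24880000 and was also the longest. Most of it was replicated in 12 of 55 DKO1 cells (21.8%) at 40 to 50% progress and in 34 of 48 (70.8%, 55.9 to 83.1%) at 50 to 60%, against 1 of 59 (1.69%) and 5 of 78 HCT116 cells (6.41%, 2.11 to 14.3%). HCT116 cells at 60 to 70% progress had a share of 32.1% there, so most DKO1 cells had copied most of the domain while most HCT116 cells had not. The domain at chr7:7120001-8400000 showed the reverse order. In HCT116 it was mostly replicated in 50 of 60 cells (83.3%) at 40 to 50% and 78 of 80 (97.5%, 91.3 to 99.7%) at 50 to 60%, and in DKO1 in 20 of 54 (37.0%) and 26 of 45 (57.8%, 42.2 to 72.3%). The domain at chr5:60560001-62240000 rose alike, in HCT116 from a share of 38.6% to one of 69.95%, in DKO1 from 34.5 to 65.2%. The other 5 lay at chr6:45440001-47520000, at chr14:58880001-60560000, at chr4:84720001-86400000, at chr5:89440001-90400000 and at chr10:49520001-50640000, with DKO1 shares of 56.0 to 75.5% at 50 to 60% progress. In this list the DKO1 shares chose the domains, so a DKO1 value above that of HCT116 is in part fixed by the rule.

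The next question was which domains still waited. A bin was called waiting if at most 10% of the cells of a line at 50 to 60% progress had copied it, that is, 25.7% of bins in HCT116 and 17.9% in DKO1. Runs of at least 5 waiting bins formed 337 domains of 537 Mb in all in HCT116 and 252 domains of 369 Mb in DKO1. Their median length was 1.12 Mb in both lines. The waiting DNA of DKO1 was nearly all part of that of HCT116: 237 of the 252 DKO1 domains (94.0%) shared a bin with an HCT116 waiting domain, and 224 of the 337 HCT116 domains (66.5%) shared one with a DKO1 domain. Counted by bins, 91.7% of DKO1 waiting bins also waited in HCT116 and 63.7% of HCT116 waiting bins also waited in DKO1. Of the HCT116 waiting bins, 763 (10.9%) had a share over 20% in DKO1, whereas 104 DKO1 waiting bins (2.15%) had a share over 20% in HCT116. In cells at 60 to 70% progress the HCT116 waiting bins had reached a mean share of 10.1% in HCT116 and 20.5% in DKO1. The DKO1 waiting bins had reached 9.83% in HCT116 and 13.8% in DKO1, a narrower gap. Waiting bins were chosen by low shares in 1 line, so a higher share in the other line is in part fixed by the rule.

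The size of this difference moved with the cells used. With HCT116 cells matched in progress the HCT116 domains summed to 534 Mb. With well-called cells only they summed to 576 Mb in HCT116 (61 cells) and 545 Mb in DKO1 (14 cells), and with 14 such cells of each line to 621 and 545 Mb, so the difference was smaller than over all cells. Limits of 10% of 14 cells allow a single cell only. The part of uncalled bins, or of what accompanies them, in the lower DKO1 value was not tested.

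Chromosome 14 had the widest gap in waiting bins, with 25.95% of its bins in HCT116 and 10.2% in DKO1. It was followed by chromosome 13 with 31.7 and 17.1% and chromosome 11 with 28.8 and 15.3%. The values were highest on chromosome 21 (42.8 and 31.6%), chromosome 18 (36.9 and 34.2%) and, in HCT116, chromosome 4 (33.3 and 24.2%), and lowest on chromosome 22 (5.52 and 3.68%) and chromosome 17 (12.1 and 6.49%). More bins waited in HCT116 on each of the 21 chromosomes that had 100 or more bins. On some chromosomes single cells stood apart: a chromosome of a cell was called off its relation if its replicated percent lay over 15 points from the curve of that chromosome against cell progress in its line. This held for 6 of 49 DKO1 cells on chromosome 11, 5 on chromosome 13, 4 on chromosome 14 and 5 on chromosome 21, and for 0, 8, 1 and 3 of 80 HCT116 cells. Without such chromosomes of cells the waiting bins of chromosome 14 were 25.95 and 17.0%, those of chromosome 13 were 37.9 and 20.45% and those of chromosome 11 were 28.8 and 20.3%, and all 21 chromosomes still had more in HCT116. With HCT116 cells matched in progress chromosome 13 had 25.8 and 17.1%. With 14 well-called cells of each line 19 of 21 did, and chromosome 14 had 29.2 and 25.7%.

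**Figure D2:**
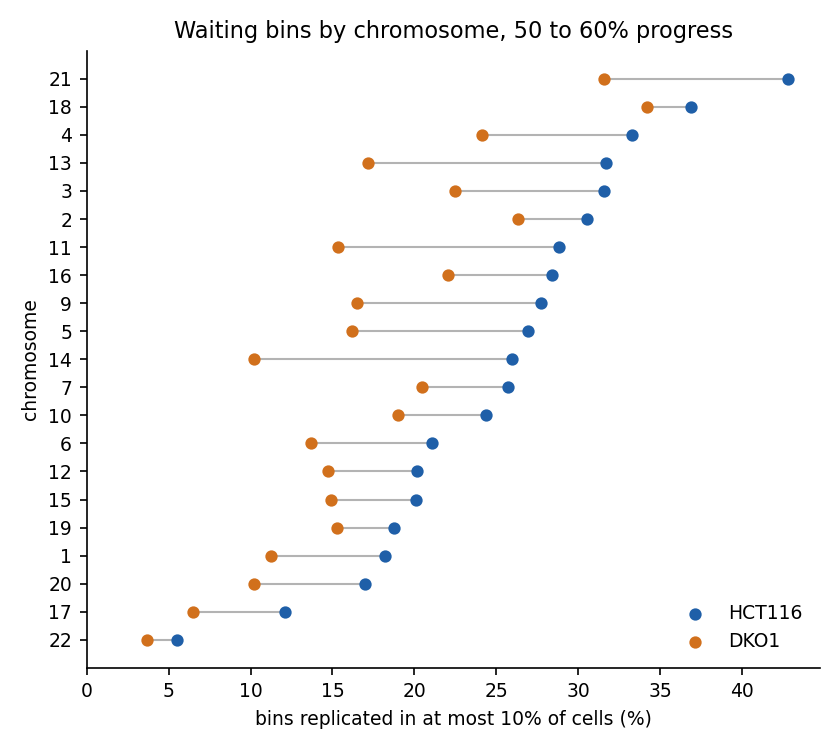
Percent of the bins of each chromosome (y axis) that were replicated in at most 10% of the cells at 50 to 60% progress (x axis), in HCT116 and DKO1, ordered by HCT116. HCT116 lies to the right on all 21 chromosomes, and the gap is widest on chromosome 14 (25.95 and 10.2%).

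The longest waiting domains were common to both lines. The longest in HCT116 covered 8.08 Mb at chr4:59840001-67920000, with a share of 0.928% in HCT116 and 5.18% in DKO1. Most of it was replicated in 0 of 79 HCT116 cells (exact upper limit 4.56% of cells) and in 0 of 48 DKO1 cells (exact upper limit 7.40%). Its DKO1 counterpart was shorter, 5.6 Mb at chr4:59840001-65440000, as more than 10% of DKO1 cells had copied bins just beyond it. On chromosome 21, 7.04 Mb waited in HCT116 (chr21:19520001-26560000) and 6.48 Mb in DKO1 (chr21:19840001-26320000), the longest domain of that line. The domain on chromosome 16 measured 6.4 Mb in HCT116 (chr16:59360001-65760000) and 6.16 Mb in DKO1 (chr16:59520001-65680000). Chromosome 14 held domains of 6.4 Mb (chr14:82160001-88560000) and 5.6 Mb (chr14:82480001-88080000), and chromosome 3 domains of 5.44 Mb (chr3:161520001-166960000) and 5.36 Mb (chr3:161520001-166880000). These 5 places were among the 8 longest of both lines, and in all of them the DKO1 domain lay within the bounds of the HCT116 domain. They were still largely unreplicated later: at 60 to 70% progress the share of the domain on chromosome 4 was 5.59% in HCT116 and 14.35% in DKO1, the share of the domain on chromosome 16 was 1.78% in HCT116 and 8.09% in DKO1, and that of the domain on chromosome 3 was 6.19 and 5.63%.

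The 3 remaining long HCT116 domains waited in DKO1 over a smaller part, 72.2 to 85.1% of their bins, against 87.5 to 98.5% for the places above. They lay at chr11:20880001-26800000, at chr4:133040001-138800000 and at chr2:78960001-84160000. The domain on chromosome 2 had a share of 2.43% in HCT116 and 8.04% in DKO1, and at 60 to 70% progress it had reached 11.2 and 25.1%. The 3 remaining DKO1 domains waited in HCT116 over 92.3 to 100% of their bins. They lay at chr3:82720001-87920000, at chr11:37760001-42960000 and at chr12:126320001-130800000. On chromosome 12 most of the domain was replicated in 0 of 79 HCT116 and 0 of 49 DKO1 cells, with exact upper limits of 4.56 and 7.25% of cells.

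How far cells at 50 to 60% progress ran ahead of or behind the earlier cells was read in bins that these cells did not choose. Late bins were those copied in at most 10% of the 40 to 50% cells of both lines (6903 bins), and early bins those copied in at least 90% of both (5117 bins). A DKO1 cell at 50 to 60% had copied a median of 7.41% of the late bins (quartiles 5.12 and 10.2%, lowest 1.68%, highest 23.65%). An HCT116 cell had copied 4.175% (quartiles 2.97 and 6.61%, lowest 0.899%, highest 18.8%). The ranges overlapped, and more than 5% of the late bins were copied in 37 of 49 DKO1 cells (75.5%, 61.1 to 86.7%) and in 36 of 80 HCT116 cells (45%, 33.9 to 56.5%), a limit chosen after the values were seen. In the 40 to 50% cells, which chose the late bins, the medians copied were 2.97% in DKO1 and 1.78% in HCT116, so the lines differed there already. At 60 to 70% they were 18.3 and 12.55%. Early bins still unreplicated were few, with a median of 0.322% of bins in HCT116 (highest 17.4%) and 1.13% in DKO1 (highest 12.9%). In the 40 to 50% cells, which chose the early bins, these medians were 1.23% in HCT116 and 2.02% in DKO1.

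Both values moved with uncalled bins. Among cells with at most 1% uncalled bins the medians of the late bins were 4.02% in HCT116 (61 cells) and 4.68% in DKO1 (14 cells). Among the other cells they were 6.79% (19 cells) and 9.27% (35 cells). Early bins unreplicated had medians of 0.254 and 0.283% in well-called cells and 1.54 and 2.33% in the others. In these well-called cells the lines differed by less than 1 point in the late bins, against medians of 4.175 and 7.41% over all cells. In the early bins they were less than 1 point apart over all cells too, at 0.322 and 1.13%, and lay closer in well-called cells. The gap was wider when 14 well-called cells of each line, matched in progress, were used and the late bins were chosen anew, at 2.74% in HCT116 and 4.275% in DKO1. The part of uncalled bins in the difference over all cells was not tested. With code 0 read as unreplicated the early bins had medians of 0.304% in HCT116 and 3.58% in DKO1.

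**Figure D3:**
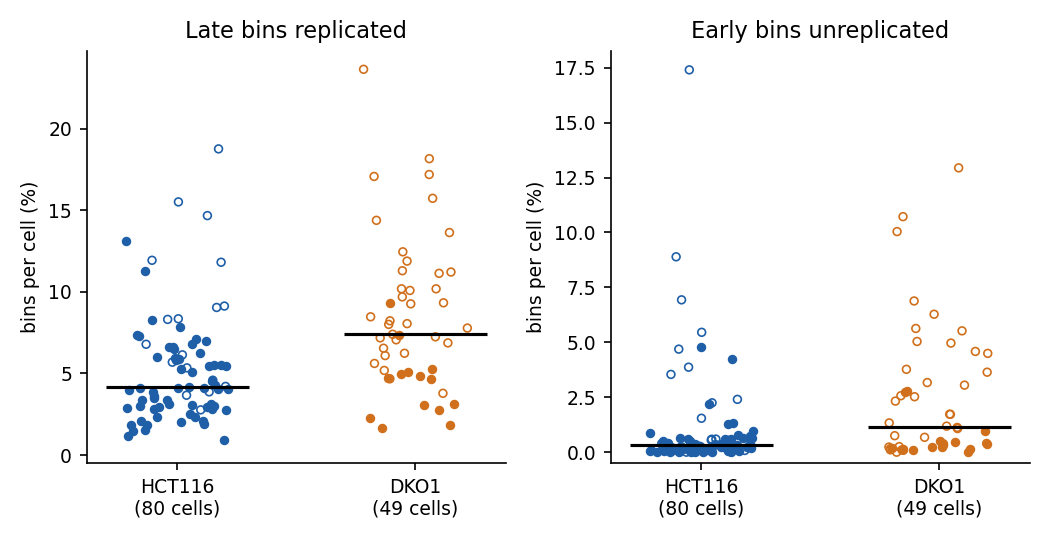
Percent of the late bins that each cell at 50 to 60% progress had replicated (left) and of the early bins it had left unreplicated (right), 1 point per cell, with the median as a line. Filled points are cells with at most 1% of bins uncalled, and open points the others. The DKO1 medians are higher (7.41 against 4.175% and 1.13 against 0.322%), and most high points are open.

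Most late DNA that had been copied adjoined the edge of a late domain. The late bins formed 317 domains of 529 Mb. Read only in domains without an uncalled bin in the cell, replicated stretches that reached an edge of the domain held 57.4% of the replicated length in HCT116 and 52.4% in DKO1. Stretches inside a domain, apart from both edges, held 28.7 and 23.9%, and domains copied whole held 13.9 and 23.6%. No share expected from the lengths of the domains and stretches was computed, so these percents alone show no preference for edges. A median HCT116 cell had 20 inner stretches (quartiles 13.8 and 31) and a DKO1 cell 22 (quartiles 13 and 30), so their number hardly differed. The length in whole domains was 1.56 Mb per cell in HCT116 (quartiles 0.6 and 3.3 Mb) and 4.96 Mb in DKO1 (quartiles 2 and 11.3 Mb).

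Domains that differed between the lines were then sought at 50 to 60% progress, as runs of at least 5 bins whose shares differed the same way by at least 20 points. In DKO1 5.42% of bins were higher and 7.27% lower by this amount. They formed 113 higher domains (84.5 Mb) and 146 lower domains (121 Mb). The excess of lower domains was absent with HCT116 cells matched in progress, which gave 137 higher and 138 lower domains, and in the middle of the window, with 140 and 141. It remained with well-called cells (106 and 156) and with code 0 read as unreplicated (108 and 161). Without chromosomes off their relation to progress the numbers were 113 and 151. In the higher domains HCT116 had a median share of 20.5% and DKO1 one of 51.9%, and in the lower domains 78.1 and 47.4%. In DKO1 both kinds were thus in the intermediate class: 112 of the 113 higher and 138 of the 146 lower domains had a DKO1 share of 20 to 80%. In HCT116 55 of the higher domains had a share of at most 20% and 58 one of 20 to 80%. Of the lower domains 65 had an HCT116 share of at least 80% and 81 one of 20 to 80%. A difference of at least 20 points in these same cells chose the domains. Where HCT116 lay near an end, a DKO1 share away from that end is therefore in part fixed by the rule.

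Other cells of the same libraries, which did not choose these domains, differed the same way. At 40 to 50% progress all 113 higher domains were higher in DKO1, with a median difference of 22.9 points, and 145 of 146 lower domains were lower, with a median of -22.0 points. At 60 to 70% progress the medians were 29.0 points (113 of 113) and -21.0 points (145 of 146). In well-called cells at 60 to 70% they were 25.65 points (107 of 113) and -20.3 points (140 of 146), from 58 HCT116 and 14 DKO1 cells. The median differences were thus of similar size in well-called cells. Fewer domains kept the difference of at least 20 points that had chosen them. Over all cells at 40 to 50% progress it held for 69 of 113 higher and 80 of 146 lower domains. At 60 to 70% it held for 79 and 78.

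Among the 8 higher domains with the largest summed difference, that at chr4:22640001-24400000 lies inside the new DKO1 domain described above. Its share was 13.99% in HCT116 and 63.9% in DKO1. Most of it was replicated in 6 of 78 cells of HCT116 (7.69%, 2.88 to 16.0%), against 31 of 48 of DKO1 (64.6%, 49.5 to 77.8%), and at 60 to 70% progress in 3 of 81 cells of HCT116 (3.70%), against 31 of 39 of DKO1 (79.5%). HCT116 cells of neither window had caught up. At chr3:18320001-19920000 the counts at 50 to 60% were 0 of 80 (exact upper limit 4.51% of cells) and 18 of 49 (36.7%, 23.4 to 51.7%). At 60 to 70% they were 1 of 79 (1.27%) and 20 of 38 (52.6%). At chr9:117600001-119280000 the counts at 50 to 60% were 0 of 79 (exact upper limit 4.56%) and 20 of 49 (40.8%, 27.0 to 55.8%). At 60 to 70% they were 6 of 79 (7.59%) and 30 of 39 (76.9%), so the lines moved further apart. In well-called cells at 50 to 60% the gaps at both places were narrower, with shares of 7.21 and 31.8% on chromosome 3 (7.25 and 42.8% over all cells) and of 9.37 and 30.3% on chromosome 9 (8.80 and 43.7%).

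At chromosomes 21 and 1 HCT116 cells came closer to DKO1 cells by 60 to 70% progress. At chr21:36000001-37200000 most of the domain was replicated in 25 of 80 cells of HCT116 (31.3%, 21.4 to 42.6%), against 39 of 47 of DKO1 (83.0%, 69.2 to 92.3%) at 50 to 60% progress. At 60 to 70% it was replicated in 62 of 81 (76.5%) and 37 of 39 cells (94.9%), so the gap narrowed. At chr1:209200001-211120000 the counts were 17 of 79 (21.5%, 13.1 to 32.2%) and 39 of 48 (81.3%, 67.4 to 91.0%), and then 44 of 81 (54.3%) and 37 of 39 (94.9%). The other 3 lay at chr4:10400001-12480000, at chr2:17360001-19120000 and at chr6:161120001-162240000, with shares of 11.2 to 14.1% in HCT116 and 42.2 to 56.1% in DKO1. That on chromosome 2 parted further, from 3 of 79 (3.80%) and 16 of 47 cells (34.0%) to 6 of 78 (7.69%) and 24 of 38 (63.2%). That on chromosome 4 stayed apart, with 6 of 77 (7.79%) and 25 of 49 cells (51.02%) and then 15 of 80 (18.75%) and 25 of 38 (65.8%). On chromosome 6 the counts were 7 of 80 (8.75%) and 29 of 47 (61.7%) and then 22 of 78 (28.2%) and 23 of 38 (60.5%).

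The lower domains included 4 on chromosome 1. The domain at chr1:198640001-200240000 had a share of 82.2% in HCT116 and 22.55% in DKO1. Most of it was replicated in 66 of 80 cells of HCT116 (82.5%, 72.4 to 90.1%), against 8 of 49 of DKO1 (16.3%, 7.32 to 29.7%), and at 60 to 70% progress in 67 of 81 (82.7%) and 8 of 39 cells (20.5%). The difference at this place was thus still wide in the later cells. The domain at chr1:245040001-247840000, at 2.8 Mb the longest of the 16 named, behaved otherwise: 71 of 79 cells of HCT116 (89.9%, 81.0 to 95.5%) had copied most of it at 50 to 60%, against 10 of 47 of DKO1 (21.3%, 10.7 to 35.7%), but 78 of 81 (96.3%) and 31 of 39 (79.5%) at 60 to 70%. At chr1:218080001-220080000 the counts at 50 to 60% were 69 of 79 (87.3%) and 16 of 48 (33.3%), and at chr1:55920001-57520000 they were 69 of 80 (86.3%) and 16 of 46 (34.8%).

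Elsewhere, the domain at chr9:79440001-81520000 was mostly replicated in 58 of 80 cells of HCT116 (72.5%, 61.4 to 81.9%), against 9 of 49 of DKO1 (18.4%, 8.76 to 32.0%). At chr11:28080001-29680000 the counts were 74 of 80 (92.5%) and 17 of 48 (35.4%), at chr7:120320001-122160000 they were 73 of 80 (91.3%) and 23 of 46 (50%), and at chr5:73040001-75600000 they were 73 of 80 (91.3%) and 27 of 49 (55.1%). At 60 to 70% progress all HCT116 cells with a call had copied most of these last 3 (81, 78 and 80 cells), against 29 of 38 (76.3%), 27 of 36 (75%) and 34 of 39 DKO1 cells (87.2%). In well-called cells at 50 to 60% the share of the domain on chromosome 11 was 85.3% in HCT116 and 60.2% in DKO1, that of chromosome 7 was 82.7 and 63.7% and that of chromosome 5 was 80.7 and 65.9%. These 3 gaps were narrower than over all cells, where the DKO1 shares were 42.7, 47.45 and 51.03%, while the domain at chr1:245040001-247840000 had shares of 73.9 and 23.5%.

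**Figure D4:**
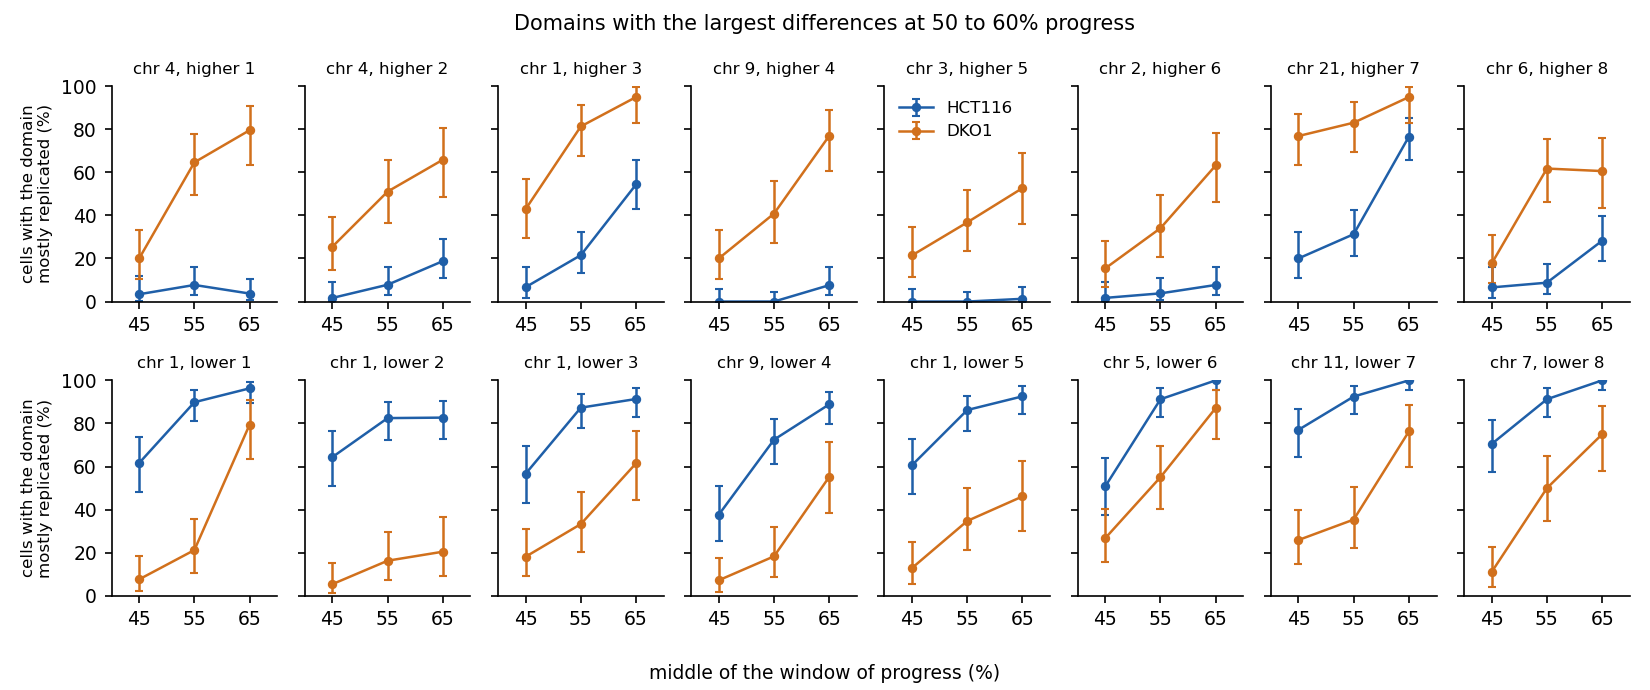
Percent of cells in which most of a domain was replicated (y axis) in cells at 40 to 50, 50 to 60 and 60 to 70% progress (x axis, middle of the window), for the 8 domains higher (top) and the 8 lower (bottom) in DKO1 with the largest summed difference at 50 to 60%, with exact 95% intervals of counting error. On chromosome 4 (higher 1) HCT116 stays at 3.70% in the last window and on chromosome 1 (lower 2) DKO1 stays at 20.5%, while on chromosome 21 (higher 7) and chromosome 1 (lower 1) the lines draw closer.

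Lastly, the lengths of replicated and unreplicated tracks were compared. A track is a run of bins in 1 state in 1 cell, bridging at most 2 uncalled bins, within an unbroken stretch of the table's bins. A cell at 50 to 60% progress had a median of 834 replicated tracks in HCT116 (quartiles 799 and 867, range 511 to 994) and 786 in DKO1 (quartiles 727 and 827, range 417 to 968). Per 100 Mb with a call the medians were 38.5 and 37.1, and 38.5 and 36.6 in well-called cells. DKO1 cells thus had slightly fewer tracks, with wide overlap between the cells of the lines.

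The tracks of DKO1 were, in turn, slightly longer. The length-weighted median, the length above which tracks hold 50% of the tracked DNA, was 2.48 Mb in HCT116 (quartiles 2.4 and 2.8 Mb) and 2.64 Mb in DKO1 (quartiles 2.48 and 2.8 Mb) for replicated tracks. For unreplicated tracks it was 2.32 Mb (quartiles 2.16 and 2.56 Mb) and 2.64 Mb (quartiles 2.4 and 2.72 Mb). The first difference is 2 bins and the second 4 bins, and the plain median track measured 0.88 Mb replicated and 0.8 Mb unreplicated in both lines. The direction for replicated tracks did not hold throughout: counting only tracks that end at a switch of state on both sides it was 2.48 Mb in HCT116 and 2.4 Mb in DKO1. Short replicated tracks of 1 or 2 bins made up 13.8% of tracks in HCT116 and 12.6% in DKO1, and tracks of over 4 Mb 7.13 and 7.88%, which held 29.7 and 32.3% of the replicated length.

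From the earlier window to this one replicated tracks lengthened while their number hardly moved. In HCT116 the median number was 835 at 40 to 50% and 834 at 50 to 60% progress, and the length-weighted median rose from 2 to 2.48 Mb. In DKO1 the number was 775.5 and 786, and the length rose from 2.08 to 2.64 Mb. Unreplicated tracks became fewer and shorter, from 814 to 741 per cell and from 2.72 to 2.32 Mb in HCT116 and from 780 to 702 per cell and from 3 to 2.64 Mb in DKO1. Since progress chose the cells, longer replicated and shorter unreplicated tracks are in part fixed by the rule.

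The longest replicated track of a cell had a median of 11.5 Mb in HCT116 (quartiles 10.6 and 13.4 Mb) and 13.4 Mb in DKO1 (quartiles 11.5 and 14.9 Mb). The extremes came from chromosomes off their relation to progress. The longest of all, 38.96 Mb at chr5:99760001-138720000, was found in a DKO1 cell at 53.35% progress in which 96.9% of chromosome 5 and 99.5% of chromosome 1 were coded replicated. In HCT116 the longest, 22.7 Mb at chr10:101600001-124320000, was found in a cell with 83.5% of that chromosome coded replicated. Such chromosomes made up 4.08% of the chromosomes of DKO1 cells (42 in 49 cells) and 1.85% of those of HCT116 cells (31 in 80 cells). Without them the longest replicated tracks were 17.9 Mb in DKO1 and 16.6 Mb in HCT116 and the medians 13.4 and 11.5 Mb. The longest unreplicated track, 25.8 Mb at chr11:109120001-134960000 in an HCT116 cell, lay on a chromosome within the limit. The same stretch was replicated throughout in a DKO1 cell, on a chromosome off its relation.

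**Figure D5:**
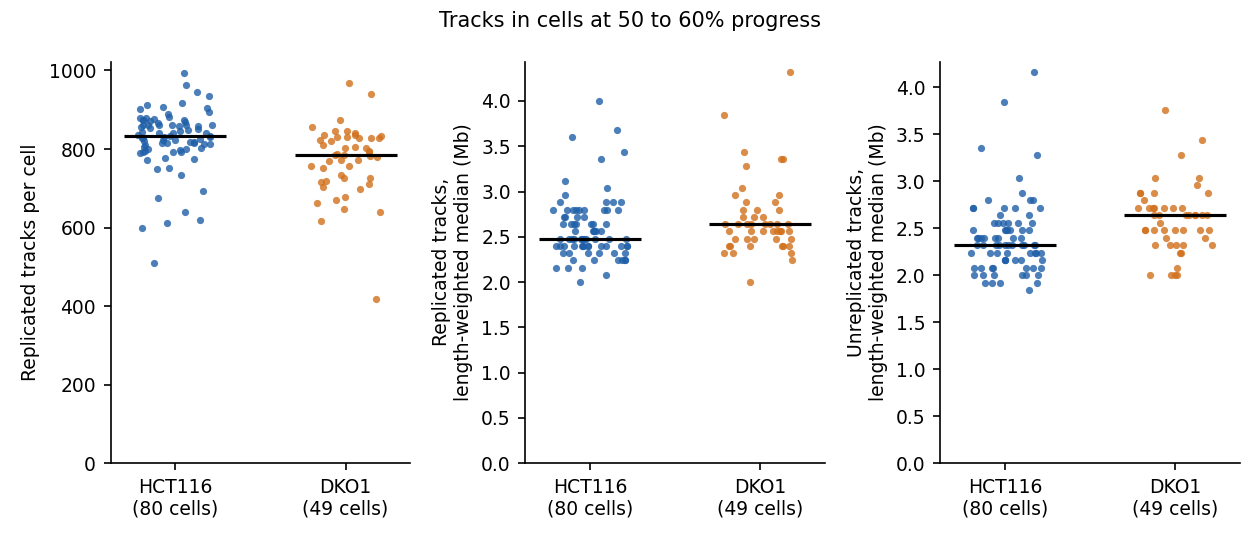
Number of replicated tracks per cell (left) and length-weighted median length of replicated (middle) and unreplicated tracks (right) in Mb, 1 point per cell at 50 to 60% progress, with the median as a line. DKO1 has fewer tracks (786 against 834) and longer unreplicated tracks (2.64 against 2.32 Mb) by median, and the points of the lines overlap in every panel.

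Whole chromosomes differed little. With HCT116 given first, chromosome 22 had the highest mean share (87.5 and 87.3%), before chromosome 17 (78.2 and 77.5%) and chromosome 19 (71.4 and 74.3%). In HCT116 it was lowest on chromosome 21 (42.7 and 43.9%), chromosome 13 (44.5 and 46.7%) and chromosome 4 (45.04 and 43.75%), and in DKO1 chromosome 18 was lowest, at 40.85% against 45.1% in HCT116. The widest differences were -4.35 points on chromosome 7, -4.27 points on chromosome 18 and 2.96 points on chromosome 19, and DKO1 was higher on 7 chromosomes and lower on 14. The DKO1 cells had a slightly lower progress in the window, as given above, and its part in these differences was not tested.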

How the data were processed

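The authors deposited 1 code for the state of each cell in each 80 kb bin, which the table's name describes as binarised calls of a hidden Markov model. Tools listed in the submitters' processing notes are bedtools 2.26.0, SAMtools 1.10 and Cell Ranger, and hg19 (GRCh37) is the build. Which software fitted the model, with which filters and how many reads for each cell, is not given in the sources used here. The depth of a call is therefore unknown. Coordinates are those of the table. No annotation of that build was used, so bins were not assigned to genes.

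Code 2 was read as replicated, code 1 as unreplicated and code 0 as not called. The codes are not defined in the table. Across 21 chromosomes the share of code 2 in these cells followed the density of protein-coding genes in a GRCh38 table (Spearman's rho 0.83 in both lines, a description). Progress was taken over all 27704 bins, and shares over the 27142 bins called in at least 90% of cells. Chromosome 8, with 21 bins, was left out of named domains. Missing bins cut the table into 406 unbroken stretches, which no domain or track spans. A cell entered a domain's count if at least 50% of the domain's bins had a call. Named were the 8 domains per list with the largest summed rise, length or summed difference. No doublet caller was run. The members and lists were chosen with earlier results of these data known. On simulated states for the real cells the search for differing domains found 30 of 30 planted domains and 0 elsewhere. That run checks the working of the search only. How often the search errs among the domains found in the real cells was not tested. Python 3.11.15, numpy 2.4.6, pandas 2.3.3 and scipy 1.17.1 were used. The G1 libraries were not analysed here. Alternatives are given in the closing section.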

Additional observations from a re-analysis of the deposited data

Results flagged for a closer look

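Uncalled bins (code 0), which the comparisons leave out, were more frequent in DKO1 cells at 50 to 60% progress, with 2.89% of calls against 0.992% in HCT116. Cells with 50 or more of them in a row (4 Mb) numbered 37 of 49 in DKO1 (75.5%, exact interval 61.1 to 86.7%) and 24 of 80 in HCT116 (30%, 20.3 to 41.3%). In the bins late in the earlier cells the percent was 2.99 in DKO1 and 0.9845 in HCT116, and in the early bins it was 2.24 and 0.397. In the 16 named domains that differed between the lines they ran from 0% to 6.12% of DKO1 calls.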

How the results depend on the processing

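Of 152 values under alternatives, 122 stayed within 1.5 times the reported value (counts, percents of bins and summed lengths) or within the quartiles over cells (medians over cells). No library could be left out, with 1 per line. No paired analysis was possible because the labels number no replicates. In 64 of 68 comparisons of the lines under an alternative the direction held. The exceptions were the number of new domains under the other definitions and the length of replicated tracks.

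Where bins needed a call in 99% of cells (8044 bins, so runs are cut short) HCT116 and DKO1 had 53 and 58 new domains, 110 and 72.5 Mb of waiting domains, 384.5 and 376 replicated tracks, replicated tracks of 1.84 Mb in both, unreplicated tracks of 1.44 and 1.52 Mb, and 33 domains higher and 44 lower in DKO1. Against all cells under 50% progress the new domains were 383 and 374, with a rise of 20 points 451 and 408, and with runs of 3 bins 347 and 445. Runs of 3 bins gave 192 higher and 225 lower domains, and a difference of 30 points 50 and 58. With a limit of 5% of cells waiting domains of DKO1 summed to 198 Mb, and late bins chosen at 5% were replicated to 2.46% in HCT116. Counting only tracks that end at a switch gave 445.5 and 416 replicated tracks, of 2.4 Mb in DKO1. With well-called cells, late bins chosen anew were replicated to 4.40% in DKO1, and with 14 well-called cells of each line, chosen after seeing the data, to 2.74% in HCT116 and 4.275% in DKO1. The cause was not tested beyond the construction of each setting.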
